A study of Mus musculus with 17 samples.

Results

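The genes described here encode the heavy and light chains of mouse immunoglobulins, measured by polyA RNA sequencing of whole liver. They were chosen by symbol (Ighv, Ighm, Ighd, Ighg, Ighe, Igha, Igkv, Igkc, Iglv and Iglc genes) from a table of 48440 genes. Of 361 such genes, the 172 with a value above 0 in at least 3 of the 17 libraries were kept. They comprised 8 heavy constant genes, 78 heavy V genes, Igkc, 79 kappa V genes, 3 lambda constant genes and 3 lambda V genes. A further 152 of the 361 were listed at 0 in every library. At the edge of the rule, 10 genes were above 0 in exactly 3 libraries, with a highest mean of 1.203 (Igkv8-16), and 10 in exactly 2, with a highest mean of 0.4305 (Igkv12-38).

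The libraries came from B6 wild-type mice at 2 months (n = 6, 4 male and 2 female), B6 wild-type mice at 2 years (n = 5, 3 male and 2 female) and miR-29 transgenic mice at 2 months (n = 6, 5 male and 1 female). The promoter, copy and background of the transgene are not given in the sources used here, and the level of miR-29 itself was not analysed here. The labels name 2 batches, A (10 libraries, TruSeq polyA kit) and B (7 libraries, NEBNext Ultra II Directional kit, all male), which also differed in sequencing core. Nothing states how the numbered samples relate to separate animals beyond their group, so p-values measure the spread between these samples.

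An antibody is built from paired heavy and light chains, each with a V region that contacts antigen and a constant region. A B cell joins V, D and J segments once, so each clone carries its own heavy and light V genes. The heavy constant gene sets the isotype. Naive B cells make IgM and IgD, and class switching moves the same V region to IgG, IgE or IgA. Plasma cells secrete antibody in bulk, and in polymeric IgM and IgA the J chain links units through a tailpiece at the end of the heavy chain. Hepatocytes do not rearrange these genes, so in whole liver their RNA comes from resident or circulating B-lineage cells. In such bulk tissue, fewer cells of a type and less RNA per cell cannot be told apart.

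The ends of the secreted heavy chain reading frames are shown first because the 2 isotypes with the clearest changes, IgM and IgA, share a feature there. The last 30 bases are read from GENCODE M21 transcripts (GRCm38, the assembly also called mm10), 5′ to 3′, on the minus strand of chromosome 12. Capitals mark the Cys-Tyr codons before the stop, which belong to the tailpiece of polymeric isotypes.
Ighm, chr12:113420867-113420896: atgtctgacacaggcggcaccTGCTATtga
Igha, chr12:113258768-113258797: atgtcagagggagatggcatcTGCTACtga
Ighg1, chr12:113328976-113329005: aagagcctctcccactctcctggtaaatga
Ighg2b, chr12:113306389-113306418: aagaccatctcccggtctccgggtaaatga
Ighg2c, chr12:113287389-113287418: aagaccatctcccggtctctgggtaaatga
Ighg3, chr12:113359665-113359694: aagaacctgtctcgctcccctggtaaatga
The 4 IgG genes have no Cys-Tyr pair at this place. Their coding sequences are similar to each other (85.9% identical between Ighg2c and Ighg2b, 77.4% between Ighg2c and Ighg1), so reads could be split between Ighg2c and Ighg2b in particular.

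The values are normalized counts as deposited. Together the 172 genes made up 0.00141% to 0.029% of a library's total, so each is a minor transcript of liver. Of the 172, 20 had a mean of at least 10 over the 17 libraries and entered the limma fit with 14588 genes in all, with group, batch and sex as terms. A gene is said to have risen or fallen where its Benjamini-Hochberg adjusted p over all genes tested was under 0.05. Fold changes come from log2(value + 1), so those of genes with low values are too small. Passing this filter depends on the level itself, so the other 152 genes are described by their values.

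Between 2 months and 2 years in wild type, 2 of the 20 genes tested rose (Ighm and Ighg2c) and 0 fell, beside 0.096% of all genes tested that rose and 0.048% that fell. At an unadjusted p under 0.05 with limma, 10 of the 20 were higher with age and none was lower. Of all genes tested, 8.73% differed at that level in either direction. Genes high in 1 group pass the filter more easily, so these counts are description. Between transgenic and wild-type mice at 2 months, 1 rose (Ighm) and 2 fell (Igha and Ighd), beside 2.89% and 3.83% of all genes. At an unadjusted p under 0.05 with limma, 4 of the 20 differed with the transgene (Ighm and Iglc2 higher, Igha and Ighd lower), beside 21.2% of all genes tested. Libraries of the groups did not overlap for 1 of 20 genes in the age comparison (Ighm, higher with age), beside 0.35% of all genes higher and 0.26% lower without overlap. In the transgene comparison they did not overlap for 1 gene (Igha, lower), beside 1.11% of all genes higher and 1.84% lower without overlap. The rule that chose the genes used only whether values were above 0, in libraries of any group.

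Ighm encodes the mu chain of IgM, the first isotype a B cell makes. Its gene lies at chr12:113418558-113422730 on the minus strand. In wild-type libraries at 2 months the value ran from 86.6 to 345.7, with a median of 158.4. At 2 years the 5 values were 1038.4, 3756.0, 1928.0, 1188.6 and 1518.8, and none overlapped the younger group. In transgenic libraries the value ran from 142.4 to 1213.3, with a median of 751.2. All but 1 of the transgenic libraries were above every young wild-type library, the exception being library 2. The age change was 3.27 ± 0.42 (log2, SE; limma adjusted p = 0.0066; 9.65-fold) and the transgene change was 1.93 ± 0.41 (limma adjusted p = 0.00811; 3.81-fold). Fitted in 1 batch at a time, the age change was 3.78 (batch A) and 2.48 (batch B) and the transgene change was 1.86 and 1.85, none of them past the threshold with the fewer libraries (limma adjusted p from 0.0673 to 0.249). The 2-year mean of 1886.0 against the transgenic mean of 727.8 gave a difference of 1.34 ± 0.43 (limma adjusted p = 0.119), which did not pass.

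Igha encodes the alpha chain of IgA, the isotype of mucosal secretions, which in rodents also passes through liver into bile. It lies at chr12:113254830-113260236 on the minus strand. In young wild-type libraries the value ran from 226.4 to 2131.3, with a median of 808.6. At 2 years the values were 2839.0, 597.6, 559.5, 257.5 and 155.1. In transgenic libraries the value ran from 7.02 to 50.4, with a median of 19.8, so the highest transgenic library was below the lowest wild-type library of either age. The transgene change was -4.72 ± 0.44 (log2, SE; limma adjusted p = 3.24e-05; 26.3-fold lower), while the age change was -0.56 ± 0.46 (limma adjusted p = 0.696). Igha stayed past the threshold in the transgene comparison under all 31 alternative settings, with changes from -5.67 to -3.49. Within young wild type the batch A libraries (611.2 to 2131.3) were all above the batch B libraries (258.8 and 226.4), and the 2 female libraries were the highest.

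Ighd encodes the delta chain, which mature naive B cells carry beside IgM through alternative splicing of 1 transcript. It lies at chr12:113406604-113416324, next to Ighm. In young wild type it ran from 2.75 to 19.98, with a median of 13.3. At 2 years the 5 values were 11.8, 44.3, 9.77, 156.5 and 30.3. In transgenic libraries it ran from 0 to 5.20, with a median of 0.815. Every 2-year library was above every transgenic library, while the young wild-type range overlapped both. The transgene change was -2.38 ± 0.66 (limma adjusted p = 0.0395), and the age change was 1.26 ± 0.69 (limma adjusted p = 0.598). The Ighd call rested on many single libraries: without any one of wild-type 2-month libraries 1, 3, 4, 5 and 6, 2-year library 5 or transgenic libraries 2, 4, 5 and 6, the adjusted p lay between 0.0532 and 0.0932, with changes from -2.45 to -2.11. Ighm and Ighd, made from 1 transcription unit, had fitted transgene changes of opposite sign.

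**Figure D1:**
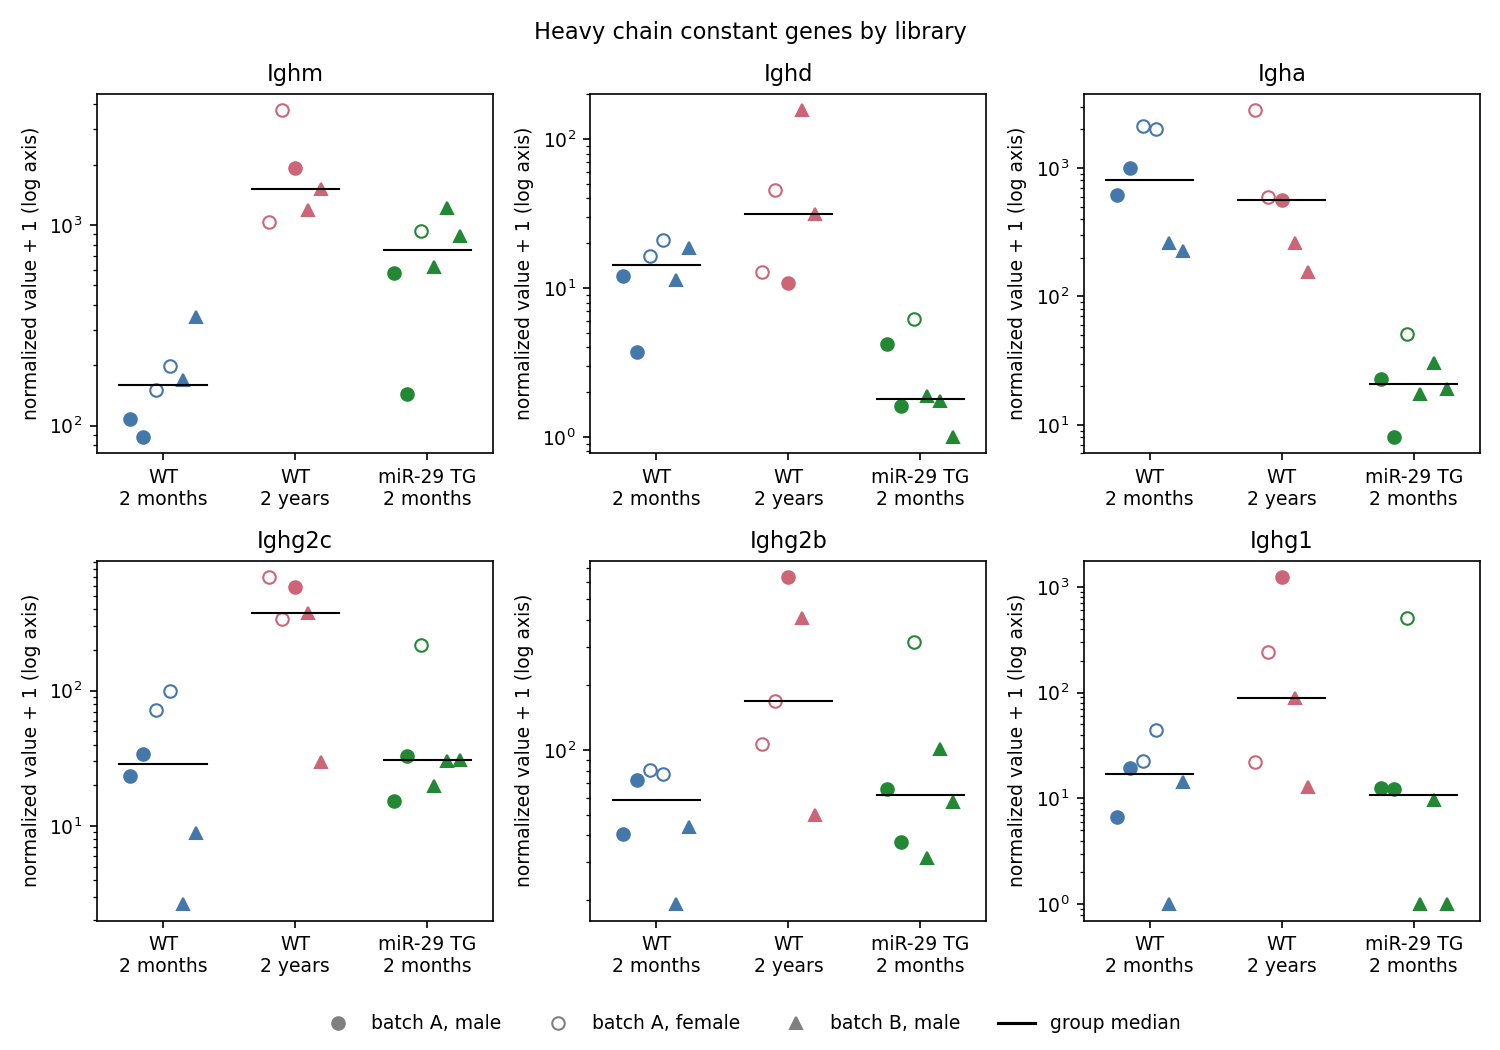
Normalized values plus 1 of 6 heavy constant genes (log axis) in each library, by group; points are libraries, filled for male and open for female, round for batch A and triangular for batch B, and lines are group medians. Transgenic libraries are the lowest for Igha (7.02 to 50.4), while for Ighm the 2-year libraries lie above all young wild-type libraries.

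Of the 4 IgG genes, 1 rose with age. Ighg2c, which encodes the IgG2c heavy chain of B6 mice (chr12:113285325-113288932), ran from 1.63 to 97.9 in young wild type, with a median of 27.8. At 2 years its values were 692.0, 336.4, 580.1, 375.3 and 28.8. In transgenic libraries it ran from 14.3 to 215.3, with a median of 29.5. The 2-year libraries 1 to 4 were above all young wild-type libraries, and library 5 was within their range. The age change was 3.57 ± 0.66 (limma adjusted p = 0.0427), and the transgene change was 1.14 ± 0.63 (limma adjusted p = 0.324). The Ighg2c call was lost without any one of 2-year libraries 1 to 4, any young wild-type library, or transgenic libraries 2, 4, 5 and 6, with adjusted p up to 0.163 and changes from 3.05 to 3.90.

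Ighg2b (chr12:113302965-113307933) had a mean of 54.68 in young wild type, 273.1 at 2 years and 100.5 in transgenic libraries. Its age change of 1.93 ± 0.63 did not pass (limma adjusted p = 0.391). Ighg1 (chr12:113325240-113330523) encodes the IgG1 chain, typical of T-cell-helped responses to proteins. Its values at 2 years were 20.96, 242.5, 1233.7, 88.5 and 12.0, and its age change of 3.22 ± 1.19 did not pass (limma adjusted p = 0.485). In transgenic liver Ighg1 was at 507.6 in library 3, the only female of that group, and at 0 to 11.6 in the other 5. Library 3 was also the highest transgenic library for Ighg2b (315.1), Ighg2c (215.3) and Ighe (12.1), the epsilon chain of IgE. Ighe reached at most 3.42 in the other 16 libraries, and Ighg3 ranged from 0 to 11.9 over all 17.

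To compare isotypes with each other, each gene's value was divided by its summed exon length. On this per-kb scale, IgA was the largest isotype in the 4 batch A libraries of young wild type (70.4% to 81.6% of the heavy constant level). In the batch B libraries of that group it made up 48.5% and 27.9%, and IgM 44.5% and 60.2%. At 2 years IgA made up 48.5% in library 1 and 6.258% to 8.78% in the other 4, with IgM at 25.1% to 86.7% and IgG at 5.307% to 48.2%. In transgenic libraries IgA made up 1.295% to 2.28% and IgM 49.4% to 90.9%. The IgM-to-IgA ratio per kb ran from 0.099 to 2.16 in young wild type, from 0.517 to 13.9 at 2 years and from 26.2 to 69.3 in transgenic libraries. Within batch A the 3 ranges were 0.099 to 0.248, 0.517 to 8.89 and 26.2 to 37.8, and within batch B 0.916 to 2.16, 6.53 to 13.9 and 53.1 to 69.3. So in both batches the groups kept the same order without overlap, while batch B lay above batch A in young wild-type and transgenic libraries.

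**Figure D2:**
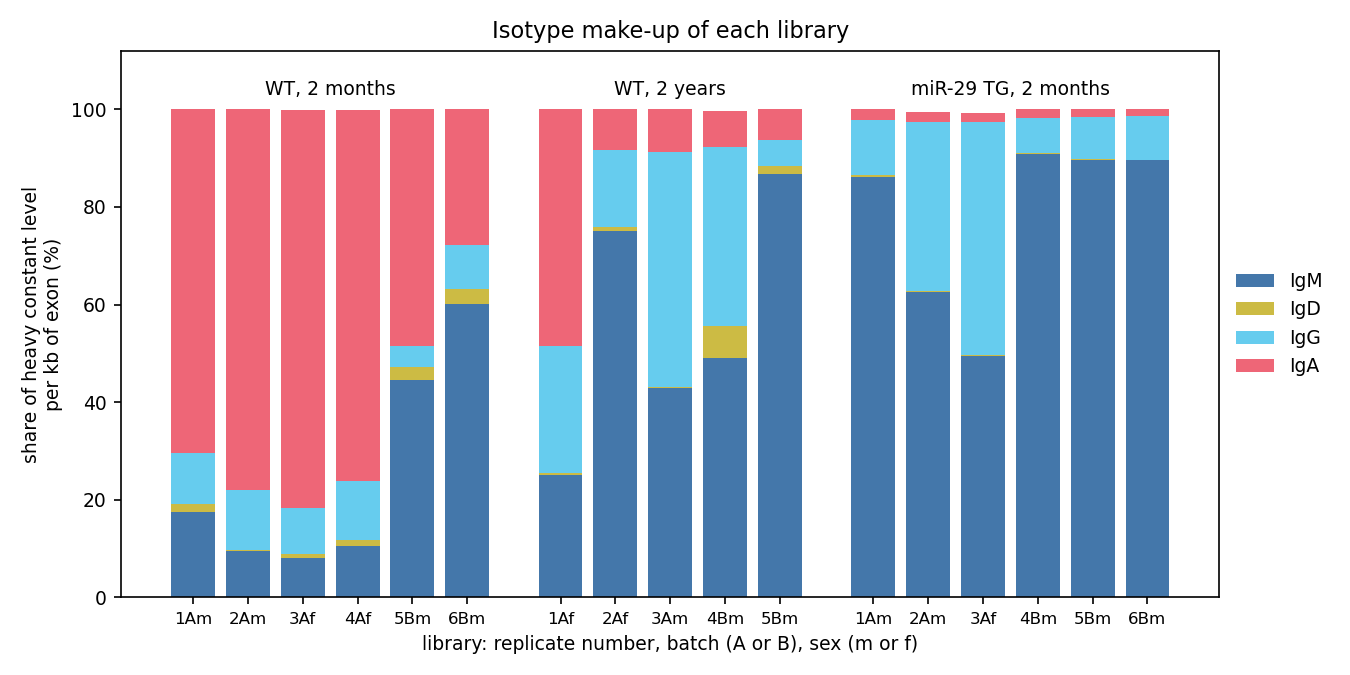
Share of IgM, IgD, IgG and IgA in the heavy constant level per kb of exon, in percent, for each library (replicate number, batch, sex); the small remainder is IgE. IgA is at most 2.28% in every transgenic library and at least 70.4% in the batch A libraries of young wild type.

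The 2-year group was next set directly against the transgenic group. This difference equals the age change minus the transgene change, because the shared young wild-type libraries cancel. Here 2 of the 20 genes were higher at 2 years (Igha and Ighd) and 0 lower, beside 1.84% of all genes higher and 0.713% lower. Both had no overlap between groups, beside 1.14% of all genes higher and 0.672% lower without overlap. Igha differed by 4.16 ± 0.47 (limma adjusted p = 0.000198) and Ighd by 3.63 ± 0.70 (limma adjusted p = 0.00975). At an unadjusted p under 0.05 with limma, 12 of the 20 were higher at 2 years and none was lower. Of all genes tested, 15.3% differed at that level in either direction. The age and transgene changes themselves share their control libraries, so their likeness is not given as a result.

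**Figure D3:**
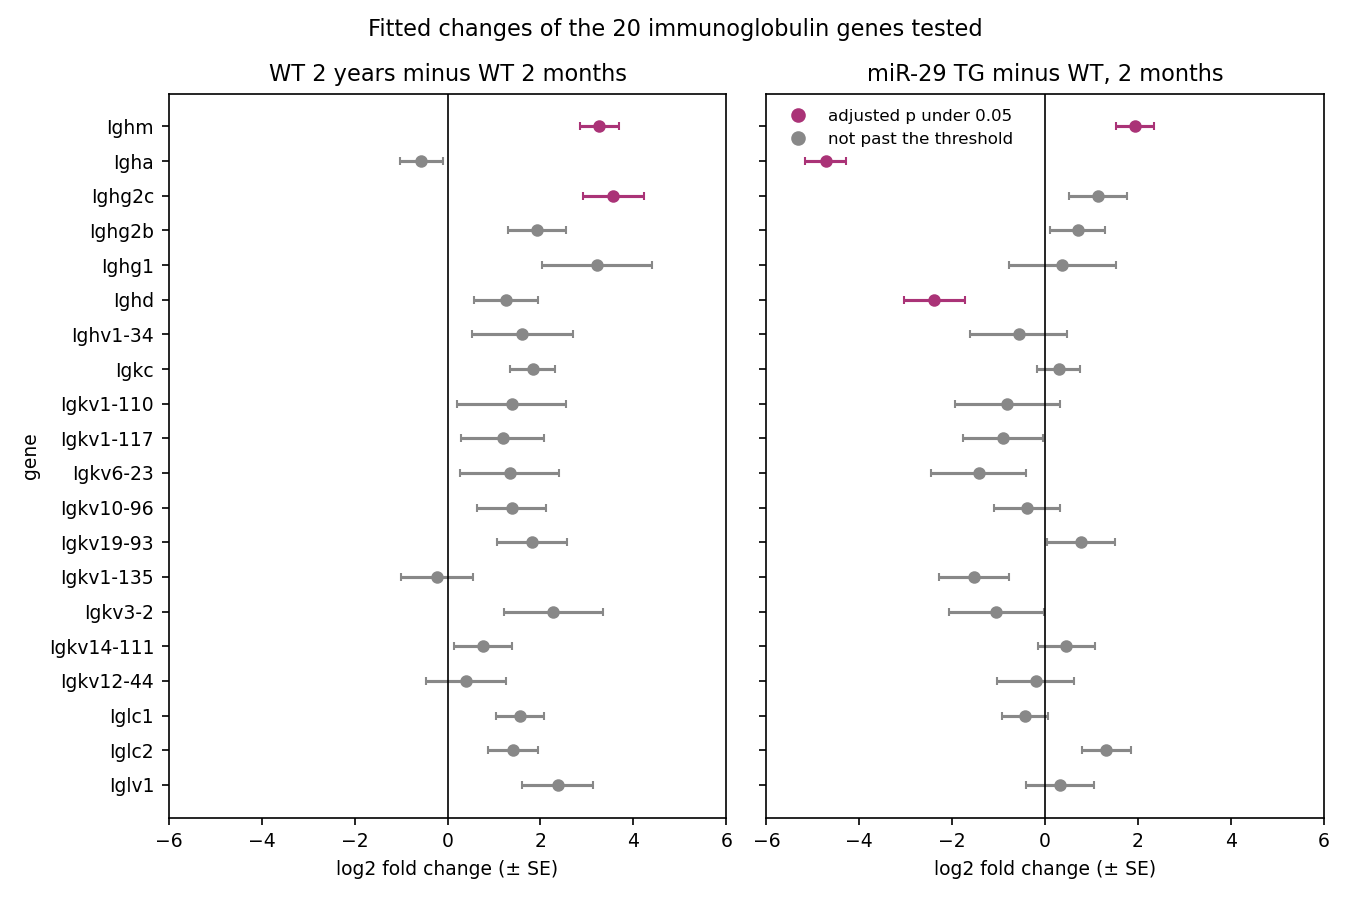
Fitted log2 fold changes with standard errors of the 20 immunoglobulin genes tested, for age in wild type (left) and for the transgene at 2 months (right); coloured points have an adjusted p under 0.05. Ighm is coloured in both panels, above 0 in each, and Igha is at -0.56 with age and -4.72 with the transgene.

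Light chains pair with every heavy isotype. Igkc, the only kappa constant gene (chr6:70726435-70726966), ran from 233.2 to 1297.4 in young wild type, with a median of 478.5. At 2 years its values were 2198.5, 4192.8, 2150.6, 1218.6 and 1350.6. In transgenic libraries it ran from 134.8 to 1269.4, with a median of 700.1. The age change of 1.83 ± 0.48 (limma adjusted p = 0.202) and the transgene change of 0.29 ± 0.46 (limma adjusted p = 0.775) did not pass. The 2-year and young wild-type ranges overlapped only through 2-year library 4, which lay below the 2 young females. The ratio of the transgenic to the young wild-type median was below 1 in batch A (0.301) and above 1 in batch B (4.29), and the fitted difference between batches was 2.53 (limma adjusted p = 0.117).

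The lambda constant genes were lower. Iglc1 ran from 6.83 to 55.2 in young wild type, from 28.2 to 84.3 at 2 years and from 1.52 to 38.9 in transgenic libraries. Iglc2 ran from 3.56 to 19.8, from 9.94 to 75.04 and from 4.76 to 54.8. Neither passed with age (1.56, limma adjusted p = 0.432, and 1.41, limma adjusted p = 0.503) or with the transgene (-0.43, limma adjusted p = 0.692, and 1.32, limma adjusted p = 0.145). Iglc2 and Iglc3 are 96.5% identical over their coding sequences, so their separate values are uncertain. Iglc3 did not exceed 23.5 in any library. Per kb, Igkc was 3.29 to 52.1 times the lambda constant level in young wild type, 7.49 to 41.4 times at 2 years and 8.7 to 25.7 times in transgenic libraries, so kappa was the main light chain in all 17 libraries. The per-kb ratio of light to heavy constant level was similar in range across groups, at 1.56 to 2.92, 1.73 to 3.1 and 1.67 to 3.87.

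**Figure D4:**
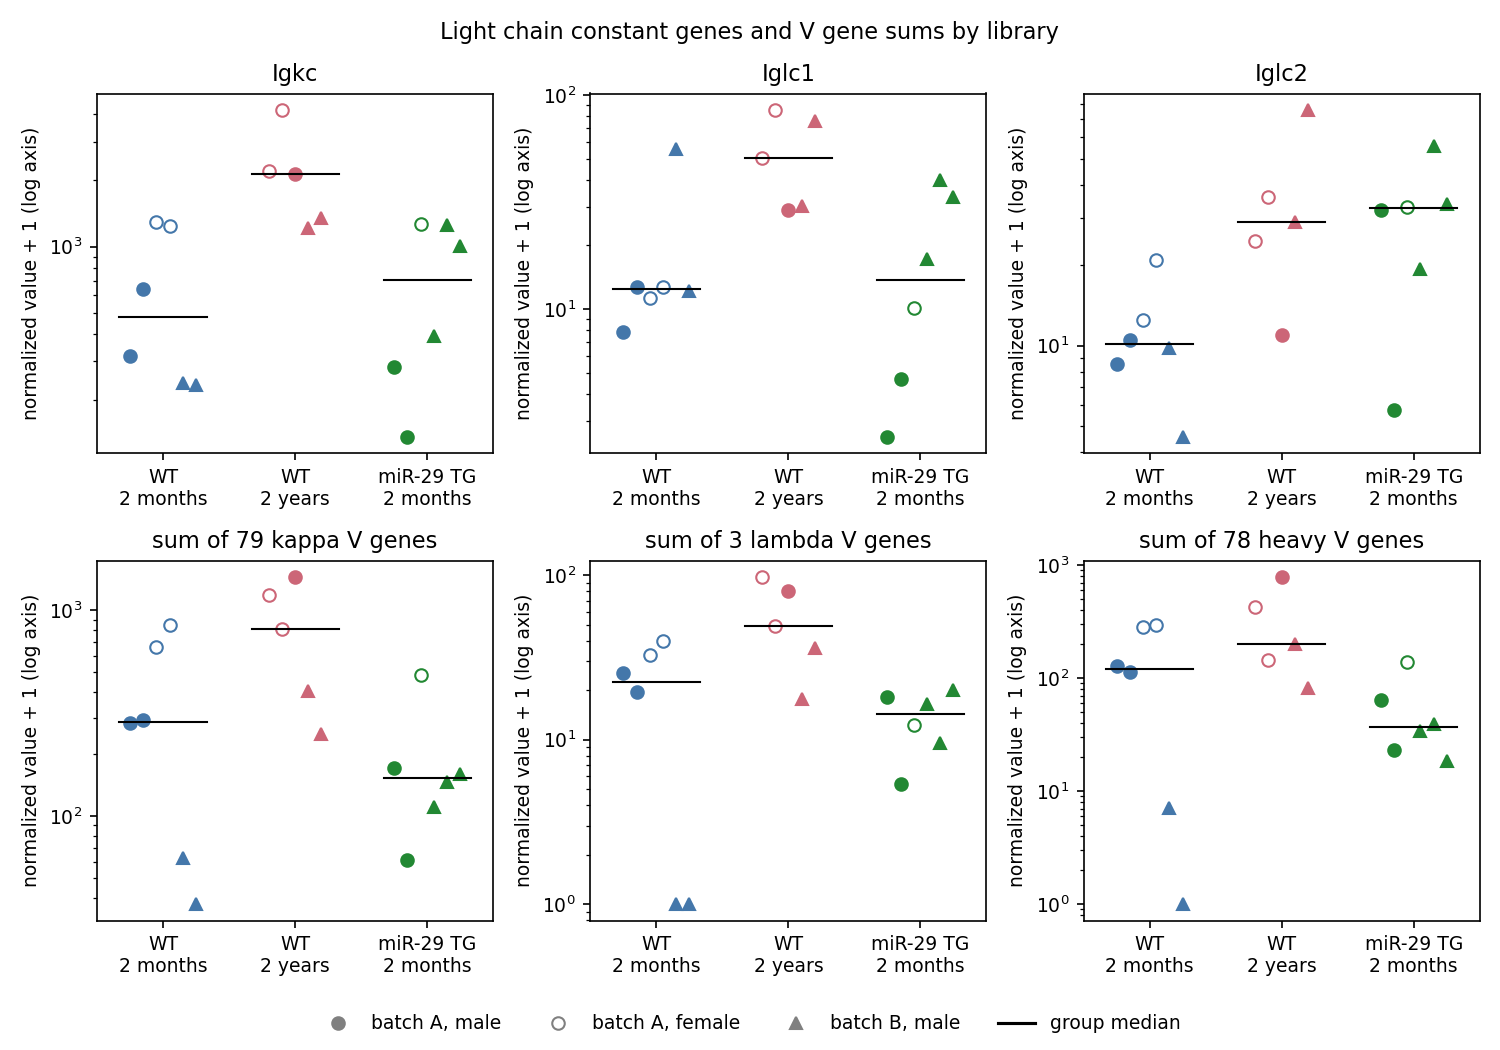
Normalized values plus 1 (log axis) of Igkc, Iglc1 and Iglc2 and of the summed kappa, lambda and heavy V genes in each library, by group; symbols give batch and sex, and lines are group medians. The V gene sums of the 2 batch B libraries of young wild type are the lowest of that group, with heavy V sums of 6.12 and 0.

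V gene values were mostly lower beside constant gene values in batch B. The summed heavy V level per kb was 0.148 to 1.04 of the heavy constant level in batch A and 0 to 0.426 in batch B. For kappa the ranges were 0.28 to 1.25 and 0.16 to 0.478. In young wild type, 44 to 60 of the 78 heavy V genes were above 0 in batch A libraries, against 2 and 0 in the batch B libraries. Iglv1, the main lambda V gene, was 15.5 to 33.1 in the batch A libraries of young wild type and 0 in both batch B libraries, while Iglc1 was 55.2 and 11.2 in those same 2 libraries. What in the batches moved V gene values was not tested. The transgene change of Iglv1 differed between batches by 5.16 (log2, limma interaction adjusted p = 0.0228), that of Igkv1-110 by 7.24 (0.0414, likewise adjusted) and that of Igkv10-96 by 4.53 (0.0429, likewise adjusted). This test by batch passed for these 3 of 20 genes, beside 0.5% of all genes tested. They were higher in transgenic than in wild-type libraries in batch B and lower in batch A. For age no gene of the 20 passed this test by batch (limma, smallest adjusted p 0.114, 3 at an unadjusted p under 0.05), beside 0.0206% of all genes tested. By sex no gene of the 20 passed for the transgene (limma, smallest adjusted p 0.116, 1 at an unadjusted p under 0.05) or for age (0.214 and 1). Of all 14588 genes tested, 189 passed by sex for the transgene and 2 for age.

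Of the V genes with a mean of at least 10, none passed with limma in either comparison with young wild type. Among these, at an unadjusted p under 0.05, Iglv1, Igkv3-2 and Igkv19-93 were higher with age and none differed with the transgene. With the filter lowered to a mean of 1, no V gene passed with age, the smallest p being those of Igkv9-124 (limma adjusted p = 0.0633) and Ighv1-53 (limma adjusted p = 0.0764). Igkv8-21 passed with the transgene. The fitted age change of Iglv1 was 2.37 ± 0.77 (limma adjusted p = 0.4), that of Igkv3-2 was 2.28 ± 1.06 (limma adjusted p = 0.566) and that of Igkv1-110 was 1.38 ± 1.17 (limma adjusted p = 0.706). Over all 172 genes, tested or not, libraries did not overlap for 2 in the age comparison (Ighm and Igkv9-124, both higher at 2 years) and 1 in the transgene comparison (Igha, lower). Of all 22562 genes with a value above 0 in at least 3 libraries, 0.39% were higher and 0.204% lower without overlap with age, and 0.833% and 1.29% with the transgene. Between 2-year and transgenic libraries, 14 of 172 did not overlap, all higher at 2 years, beside 1.02% of those 22562 genes higher and 0.532% lower. They were Igha, Ighd, 6 heavy V genes (Ighv1-15, Ighv1-53, Ighv1-76, Ighv1-9, Ighv6-3 and Ighv9-3) and 6 kappa V genes (Igkv4-55, Igkv4-59, Igkv5-39, Igkv6-15, Igkv6-25 and Igkv9-124). For example, Ighv1-9 was 3.96 to 13.7 at 2 years and 0 in all 6 transgenic libraries. In young wild type it was 4.13 to 8.80 in batch A libraries and 0 in both batch B libraries. Igkv8-21 was higher in transgenic libraries 3 to 6 (24.5, 28.8, 11.7 and 34.6) than in every young wild-type library (0 to 5.74), with 6.22 and 2.92 in transgenic libraries 1 and 2. With the filter lowered to a mean of 1, its transgene change was 2.82 ± 0.58 (limma adjusted p = 0.00726).

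Single libraries of the 2-year group carried single V genes at high levels. In 2-year library 3, the heavy V gene Ighv1-34 was at 361.7, which was 45.4% of that library's heavy V level per kb and 93.4% of the gene's sum over the 17 libraries. The next highest library had 7.863. In the same library the kappa V gene Igkv6-23 was at 503.5, 35.1% of its kappa V level per kb, with the next highest library at 30.2, and Ighg1 was at its highest of all libraries, 1233.7. The coding parts of the V exons of this pair, at most the last 300 bases, are printed because these genes hold the highest heavy and kappa V values in the data. Both are germline sequence of GRCm38 (GENCODE M21), minus strand, 5′ to 3′, with capitals marking the codons of the conserved Tyr-Tyr-Cys or Tyr-Phe-Cys that precede the junction.
Ighv1-34, chr12:114851190-114851489: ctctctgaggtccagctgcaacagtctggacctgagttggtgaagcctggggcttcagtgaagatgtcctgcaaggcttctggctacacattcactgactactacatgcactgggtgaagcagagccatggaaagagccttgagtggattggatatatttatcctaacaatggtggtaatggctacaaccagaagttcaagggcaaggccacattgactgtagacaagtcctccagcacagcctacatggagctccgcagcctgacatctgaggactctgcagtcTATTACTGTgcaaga
Igkv6-23, chr6:70260409-70260706: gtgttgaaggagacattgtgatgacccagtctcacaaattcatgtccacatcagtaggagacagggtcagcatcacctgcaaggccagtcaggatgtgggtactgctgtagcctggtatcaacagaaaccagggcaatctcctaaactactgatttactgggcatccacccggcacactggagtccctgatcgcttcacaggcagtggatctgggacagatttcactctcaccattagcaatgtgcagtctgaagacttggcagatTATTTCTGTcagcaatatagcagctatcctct
The deposited values carry no junction sequence, so whether these reads belong to 1 clone was not tested.

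Other 2-year libraries had other leading V genes. Library 1 led with Igkv1-110 (317.4) and Igkv1-117 (212.5). These were also the 2 leading kappa V genes in young wild-type libraries 1, 3 and 4, and 1 of them led in transgenic libraries 1 and 5. The coding sequences of Igkv1-110 and Igkv1-117 are 97.2% identical, so their separate values are uncertain. Their germline ends differ in the bases after the conserved cysteine, shown from the Tyr-Phe-Cys or Tyr-Tyr-Cys codons in capitals, on the plus strand of chromosome 6.
Igkv1-110, chr6:68271236-68271267: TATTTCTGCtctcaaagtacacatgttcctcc
Igkv1-117, chr6:68121796-68121827: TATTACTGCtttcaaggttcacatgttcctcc
Library 2 led with Igkv19-93 (151.2, next highest 35.37 in a young wild-type library) and was also alone in Igkv4-63 (65.85, next highest 6.737) and Igkv4-91 (58.62, next highest 4.809). Library 5 led with Igkv2-137 (67.1). Of the 107 V genes with a mean of at least 1, 10 had over 50% of their 17-library sum in 1 library. Of these 10, 8 were in 2-year libraries 1 to 3, 1 in a young wild-type library and 1 in a transgenic library. Those 2-year libraries had V gene sums of 1710.4, 1007.3 and 2312.5, against 36.16 to 1182.8 in young wild type. A share of an unscaled sum favours libraries with large V gene sums, and 1 high library can carry a gene past the filter. The count is therefore no result about age. The inverse Simpson index, the number of equally used V genes that would give the same evenness, was 7.17 to 13.9 for kappa in batch A at 2 years, 14.8 to 23.7 in young wild type and 11.7 to 20.3 in transgenic libraries. In batch B the order differed, with 11.4 to 18.2 at 2 years, 4.15 to 6.49 in young wild type and 10.7 to 14.3 in transgenic libraries. For heavy chain in batch A the index was 4.65 to 29.1 at 2 years and 23.4 to 36.4 in young wild type, which overlapped. In transgenic libraries of batch A it was 11.9 to 17.2, below young wild type. The index was lowest of all batch A libraries in 2-year library 3, for both kappa (7.17) and heavy chain (4.65).

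By family, Ighv1, the largest mouse heavy V family, made up a median of 62.2% of the heavy V level per kb in young wild type (56.5% to 71.8%), 68.3% at 2 years (44.2% to 73.8%) and 35.4% in transgenic libraries (19.5% to 56.1%). In transgenic libraries the heavy V sum was only 17.7 to 138.6, against 80.24 to 783.5 at 2 years, so the transgenic shares rest on low values. In young wild type the 71.8% came from library 5, with a heavy V sum of 6.12. Library 6 of that group had a sum of 0 and gave no share. The Igkv8 family made up a median of 5.66%, 3.9% and 22.8% of the kappa V level in the 3 groups, with ranges of 0 to 22.6%, 2.59% to 12.2% and 5.89% to 37.7% that overlapped.

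**Figure D5:**
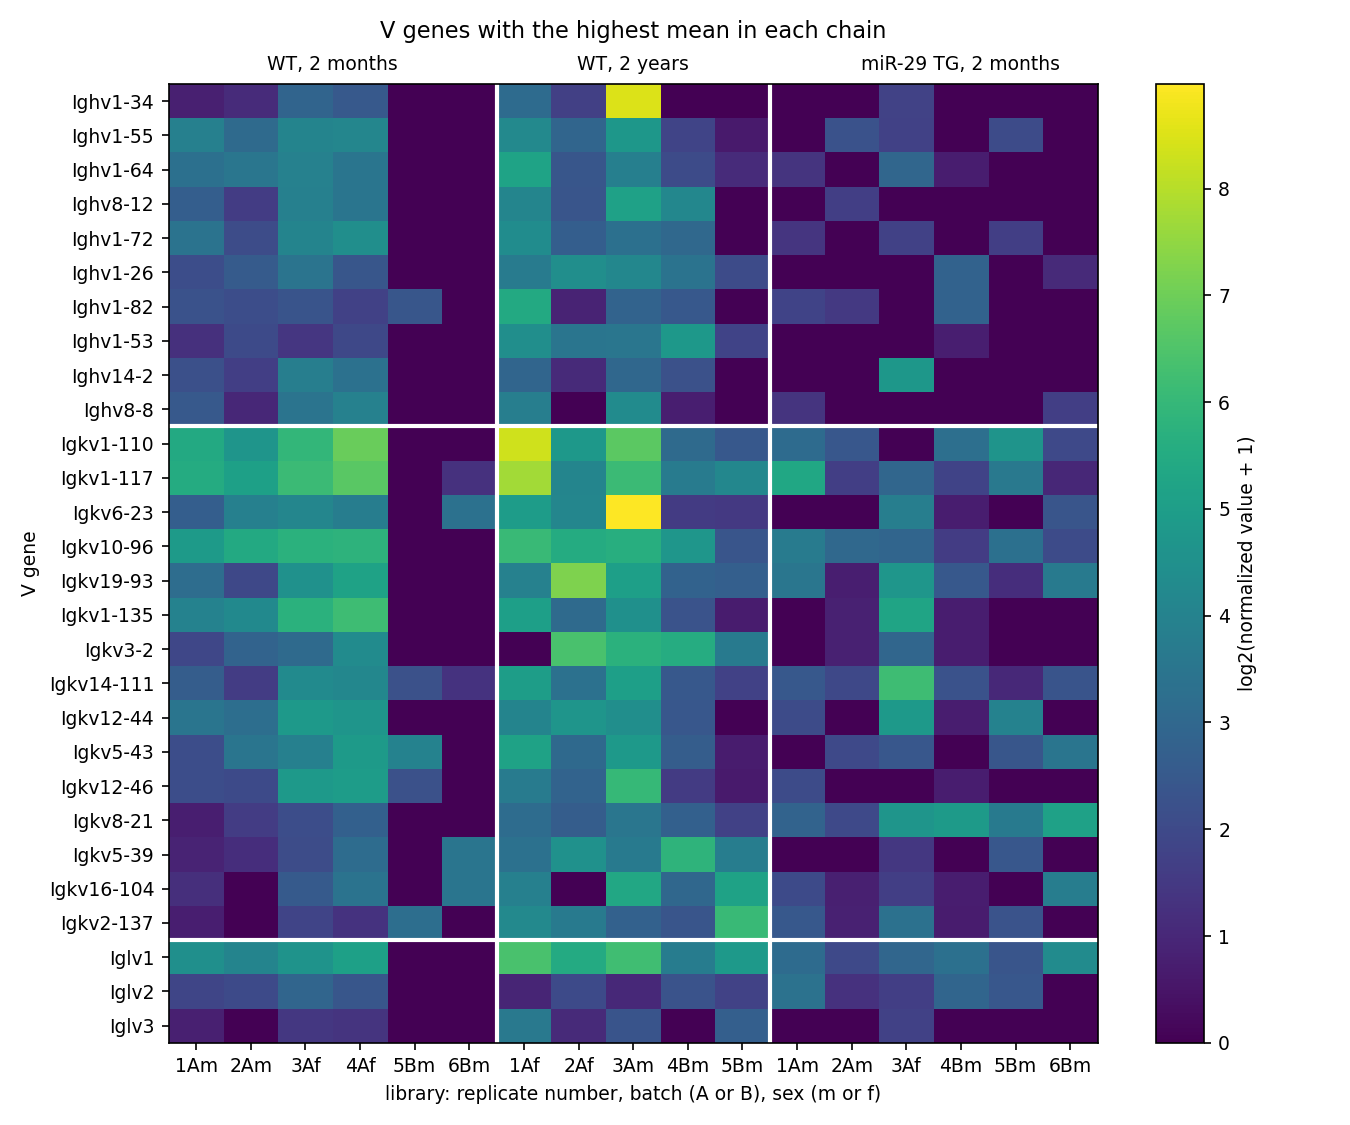
Log2(normalized value + 1) of the 10 heavy, 15 kappa and 3 lambda V genes with the highest means, by library (replicate number, batch, sex). Ighv1-34 and Igkv6-23 stand out in 2-year library 3 (361.7 and 503.5), and the young wild-type batch B libraries are near 0 for most V genes.

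Genes that work with immunoglobulins were read from lists for B cells, plasma cells, receptors and transport, gene rearrangement and survival factors. With age, limma called none of the 11 B cell, 15 plasma cell, 9 receptor, 8 rearrangement and 8 survival genes tested. At an unadjusted p under 0.05 the counts were 2, 4, 2, 0 and 1. Of the genes named here, the authors' deposited table called the Fc receptor gene Fcgr2b (0.84), the folding factor gene Fkbp11 (-2.06) and the chemokine gene Ccl21a (-2.10) with age. None of 3 surrogate light chain genes had a mean high enough to be tested. Between 2-year and transgenic libraries, the B cell gene Cd79a was higher at 2 years. Cd79a, a signalling chain of the B cell receptor, was 9.04 to 135.2 at 2 years and 1.42 to 19.2 in transgenic libraries (2.67 ± 0.66, limma adjusted p = 0.0381), a call lost without any one of 2-year libraries 1, 2, 3 and 5, young wild-type libraries 1 to 3 or transgenic libraries 1, 2, 4, 5 and 6 (adjusted p up to 0.147).

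The transgene comparison called 1 of 15 plasma cell genes and 1 of 9 receptor and transport genes, both lower. It called 1 of 8 rearrangement genes and 1 of 8 survival genes, both higher, and none of 11 B cell genes. Of all genes tested, 2.89% rose and 3.83% fell with the transgene. With 1 call per list at most, these counts are not read as a result about the lists. At an unadjusted p under 0.05 with limma, 5 of the 11 B cell genes differed, beside 21.2% of all genes. Fkbp11, a folding factor of secretory cells, fell by 1.83 (limma adjusted p = 0.0341), with the 2 highest values, 1969.7 and 2231.7, in the batch B libraries of young wild type. B2m, the light chain of MHC class I and of the neonatal Fc receptor, fell by 0.88 (limma adjusted p = 0.035). Ung, a uracil glycosylase used in base excision repair and class switching, rose by 0.91 (limma adjusted p = 0.044). Cxcr4, a chemokine receptor that holds plasma cells in bone marrow and is also carried by other leukocytes, rose by 1.43 (limma adjusted p = 0.0413). Each of these 4 calls was lost on leaving out single libraries. For Fkbp11 these were young wild-type libraries 2, 5 and 6 and transgenic libraries 2 to 5 (adjusted p up to 0.109), and for B2m young libraries 2 to 5 and transgenic libraries 1, 2, 3 and 6 (up to 0.11). For Ung they were 2-year library 5, young libraries 1 to 5 and transgenic libraries 1, 2, 3 and 5 (up to 0.0981), and for Cxcr4 2-year library 5, young libraries 2 to 6 and transgenic libraries 2 to 6 (up to 0.112). Jchain, which links IgM and IgA polymers, was 57.2 to 627.7 in young wild type, 112.1 to 1000.7 at 2 years and 13.3 to 161.5 in transgenic libraries, and its transgene change of -1.31 ± 0.58 did not pass (limma adjusted p = 0.203). Pigr, the receptor that carries polymeric IgA across epithelia, had a transgene change of -1.14 ± 0.39 (limma adjusted p = 0.0984). Dntt, the enzyme that adds bases at V junctions, was 18.7 to 843.6 in young wild type, 69.2 to 331.9 at 2 years and 0 to 178.4 in transgenic libraries. Its age change of 0.99 ± 0.88 did not pass (limma adjusted p = 0.715). Dntt was higher at 2 years than in transgenic libraries (3.65 ± 0.89, limma adjusted p = 0.0371). That call was lost without any one of 2-year libraries 1, 2, 3 and 5, young libraries 2 and 4 or transgenic libraries 2 to 5 (up to 0.104). Rag2, part of the enzyme that cuts immunoglobulin genes for V(D)J joining, was listed at 0 in all 17 libraries.

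Marker sums of other cell types are given as ranges, with no test, and in these lists each pair of groups overlapped. The 5 B cell markers summed to 30.76 to 137.8 in young wild type, 59.11 to 584.4 at 2 years and 8.411 to 109.4 in transgenic libraries. Neutrophil markers (8 genes) summed to 27.4 to 488.1, 95.45 to 2169.9 and 408.6 to 47355.7, and erythroid markers (5 genes) to 4089.2 to 75557.3, 4834.9 to 22113.6 and 3549.3 to 149459.5. Plasma cell markers (5 genes, among them Sdc1, which hepatocytes also express) summed to 3810.5 to 6757.0, 5460.3 to 15537.6 and 6284.4 to 12335.8. Sdc1 alone was 3724.7 to 14951.2 over the 17 libraries and made up most of each sum, so the sum mainly follows Sdc1. Fitted transgene changes were 0.73 for Sdc1, 0.43 for Prdm1, -1.31 for Jchain and -0.92 for Mzb1, none past the threshold. Kupffer cell markers summed to 6958.8 to 15005.8, 7572.6 to 29680.2 and 5076.1 to 52999.5, and T cell markers to 86.4 to 175.2, 60.29 to 703.6 and 43.69 to 197.2. The part of these cells in the immunoglobulin changes was not tested. Hepatocyte markers (7 genes) summed to 2055698.3 to 5619332.7 over the 17 libraries.

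The authors' deposited table for age listed 55 of the 172 genes with an adjusted p and called 8 higher (Igkc, Ighm, Ighg2b, Ighg2c, Ighv1-53, Igkv2-137, Igkv3-2 and Iglv1) and 0 lower, beside 1.07% of all genes in that table higher and 0.702% lower. There Igkc rose by 1.96 ± 0.29 (adjusted p = 4.42e-08) and Ighm by 3.42 ± 0.40 (adjusted p = 3.32e-13). Their table for the transgene listed 25 and called 3 higher (Ighm, Iglc2 and Igkv8-21) and 2 lower (Igha and Ighd), beside 7.01% and 7.06% of all genes in that table. There Igha was at -4.76 ± 0.40 (adjusted p = 4.19e-30) and Ighd was at -3.39 ± 0.89 (adjusted p = 0.00231). The limma fit and the authors' deposited table thus gave Ighm and Ighg2c with age, and Ighm, Igha and Ighd with the transgene, the same direction and call.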

How the data were processed

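Liver polyA RNA was sequenced in 17 libraries. The authors deposited gene-level normalized counts, a signal that is not whole numbers, and tables of log2 fold changes with adjusted p-values and a test statistic, a score; the build mm10 and the tools DESeq2, Salmon 0.6.0 and STAR 2.5.3a come from the submitters' processing notes. Library totals of 28077001 to 44543936 are normalized, so depth is unknown and low values carry no counting interval. limma 3.58.1 (R 4.3.3) was fitted to log2(value + 1) of the 14588 genes with a mean of at least 10, with group, batch and sex, all 3 groups sharing 1 spread, two-sided, Benjamini-Hochberg threshold 0.05; the fit was tested on simulated data. Per-kb levels divide by summed GENCODE M21 exon length. Sums and shares have no test. Named genes were all constant genes, every gene called, the 5 highest heavy and kappa and 3 highest lambda V genes; others were chosen after their values were seen. Members and lists were chosen with earlier results of these data known. Alternatives covered the pseudocount, filter, rescaling, model terms, array weights, batch, sex, each library left out and the authors' deposited table. Same-numbered libraries did not pair (16 pairs, correlations -0.32 to 0.38). No member had an entry in the promoter table, so a planned motif search was not run. Some genes of the other lists are not reported here.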

Additional observations from a re-analysis of the deposited data

Results flagged for a closer look

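Of 75 sets of 1 gene in 1 group, 21 had a library apart from the rest. The rule that marked them gives about 1 in 20 by chance only for independent sets of normally distributed values. These sets share libraries, and values such as those of Ighg1 are skewed, so the count is not read as an excess over chance. A further 3 results were differences between batches. Transgenic library 3, the only female of its group, stood apart in 8: Ighg1 (508), Ighg2b (315), Ighg2c (215), Ighe (12.1), Igkv6-23 (13.3), Ighv1-64 (6.87), Ighv1-34 (2.44) and Iglv3 (2.36). Without other females in the group, sex and library cannot be told apart there. Among 2-year libraries, library 3 stood apart in Ighg1 (1233.7), Ighv1-34 (362) and Igkv6-23 (504), library 1 in Igha (2839.0) and Igkv1-117 (212), library 2 in Igkv19-93 (151) and library 4 in Ighd (156). In young wild type, library 5 stood apart in Iglc1 (55.2) and library 4 in Ighg3 (4.46). The other transgenic values apart from their group were Igkv1-117 in library 1 (40.1), Igkv1-110 in library 5 (23.9), Iglv1 in library 6 (19.1) and Ighv8-12 in library 2 (2.19). The transgene change differed between batches for Iglv1 (5.16), Igkv1-110 (7.24) and Igkv10-96 (4.53) by the limma interaction test.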

How the results depend on the processing

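Of 2298 values of single genes under alternatives, 2115 kept their side of the threshold, 145 lost the threshold, 38 gained it and none of those called reversed. Values not called could change direction while counted as kept. The transgene change of Igkv1-110, for example, was -0.81 in the main fit and ran from -3.94 to 3.3 under alternatives. The number of members called with age was 2, and became 1 without the sex term, without the batch term, with the replicate block and in males alone, 0 in batch A alone and in batch B alone, and 8 in the authors' deposited table; leaving out 1 library gave 1 to 2. With the transgene it was 3, and became 2 with a pseudocount of 5, without the batch term, with the replicate block, in batch A alone and in males alone, 1 in batch B alone, 4 with the filter at a mean of 1 and 5 in the authors' table; leaving out 1 library gave 2 to 3. Between 2-year and transgenic libraries it was 2, and became 11 with the filter at a mean of 1 or with no filter, 4 in batch A alone and 1 in batch B alone; leaving out 1 library gave 2 to 3. As ratios of group medians for the transgene, batch B alone gave 2.57 for all members (0.915 over both batches, 0.356 in batch A alone), 4.29 for Igkc, 10.9 for heavy V, 2.97 for kappa V and 0.0745 for IgA, batch A alone gave 0.24 for IgD, and males alone gave 1.66 for lambda V. For age, batch B alone gave 45.5 for heavy V and 6.68 for kappa V. No value could be given for lambda V in batch B, where the young wild-type median is 0. Same-numbered libraries share only a number. The normalized values hide depth, so zeros among V genes cannot be read as absence.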
